A study of Homo sapiens with 12 samples.

Results

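The genes of the mTOR complexes and of the TSC-RHEB switch were followed through an AGO2 RNA immunoprecipitation (AGO-RIP) of K562 cells, a human erythroleukemia cell line. The members were MTOR, RPTOR, RICTOR, MLST8, MAPKAP1, AKT1S1, DEPTOR, TSC1, TSC2 and RHEB, found by symbol in the deposited tables, and they took 10 of 61782 rows. All 10 had exactly 1 row, 9 of them in their own right, while the row of AKT1S1 was joined with another gene. The row of DEPTOR was listed at 0 in every group, which left 9 members to compare. The 4 groups hold 3 samples each. RNA was precipitated with an antibody to AGO2 (called AGO here) or, as a mock, with IgG from cells carrying a lentiviral miR-143 vector (pLV-miR-143) or the control vector (pLV-control), and the groups are called control_IgG, control_AGO, miR143_IgG and miR143_AGO. Per the study's methods, all cells were K562-C/EBPα-ER, a subline that carries an inducible form of the transcription factor C/EBPα. Transduced cells were selected with puromycin or sorted, and then kept in puromycin, which the medium of this subline contains as well. Per the study, both vectors also carry a red fluorescent reporter. An AGO2 antibody recovers mRNAs held by any miRNA of the cell, so that an AGO value is not particular to miR-143, and total RNA of the cells was not analysed here, so that more mRNA in the cells and more binding per mRNA cannot be told apart.

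mTOR is a serine/threonine kinase that couples cell growth to nutrients, energy and growth factors. It works in a pair of complexes that share the kinase and its partner mLST8: mTORC1, defined by raptor (RPTOR), drives protein synthesis and holds back autophagy, and mTORC2, defined by rictor (RICTOR) and SIN1 (MAPKAP1), phosphorylates AKT. The GTPase RHEB switches mTORC1 on, and the TSC complex of hamartin (TSC1) and tuberin (TSC2) switches RHEB off. The study described members of the mTOR pathway as highly enriched among the miR-143 targets of its AGO-RIP. The question here was how the mRNAs of the core genes of mTOR signaling were distributed over the 4 precipitates.

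The values are the authors' averages per group in FPKM (fragments scaled by transcript length and by the mapped fragments of the library). There is 1 value per gene and group, so that no difference below has a replicate error or a test. Fragment numbers are unknown, but relative depth can be read from a low edge, taken on FPKM multiplied by the length of the transcript as the 10th lowest such product above 0. Relative to miR143_AGO the edge stood at 1.09 for control_AGO, 1.64 for miR143_IgG and 13.5 for control_IgG, so that few fragments lie behind a small control_IgG average. Counted with the longest coding transcript of each gene, the 9 members lay at least 85.9 times above the edge in the other 3 groups. In control_IgG, 8 of them lay 44.3 to 126 times above it, and RICTOR only 2.07 times. The vector's miRNA row, MIR143, was listed at 0 without the vector and reached 44781 FPKM (IgG) and 118393 FPKM (AGO) with it, as the labels say. Of 10 rows of K562 marker genes (12 erythroid and hematopoietic genes, among them the globins and GATA1), 9 were above 0 in control_IgG and 10 in each other group, with sums from 533 FPKM in control_IgG to 1111 FPKM in miR143_AGO. Of 9 markers of other cells, CD3E, MS4A1, CD14, PECAM1 and ALB were at 0 throughout, while the epithelial keratin KRT18 (35.1 to 78.3 FPKM) made up most of the list's sum in every group. EPCAM ranged from 0 in control_IgG to 8.28 FPKM in miR143_IgG. The part of these markers in the values below was not tested.

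The sequences that could link these mRNAs to miR-143 are shown first. A miRNA finds its targets mainly through its seed, bases 2 to 8, printed in capitals. Both arms of the miR-143 hairpin (chromosome 5) are given, together with miR-99a-5p and miR-100-5p, a pair with a common seed that is known for targeting MTOR. The mature sequences are those of RefSeq (GRCh38.p14).
miR-143-3p: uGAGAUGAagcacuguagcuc
miR-143-5p: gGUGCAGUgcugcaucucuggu
miR-99a-5p: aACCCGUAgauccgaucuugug
miR-100-5p: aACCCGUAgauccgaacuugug

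For each gene the longest 3′ UTR in GENCODE 29 was searched for seed sites (GRCh38, the build of the deposited files), on the transcribed strand. A 7mer-m8 site pairs with the whole seed, a 7mer-A1 site lacks the last seed base but is followed by A, and an 8mer has both. For miR-143-3p the 8mer is TCATCTCA, and each 7mer is that word without its first or its last letter. RICTOR, TSC1 and TSC2 held such a site, and the other 7 members held none. Matches in the 5′ UTR or coding sequence of the same transcripts were not counted as sites. TSC2 had 3 of these for miR-143-3p, MAPKAP1 2, RPTOR 1 and DEPTOR 1. At least 1 site was present in 22.2% of the 19115 longest 3′ UTRs of coding genes. Since long 3′ UTRs hold more sites by length alone, the share was also taken over the 500 genes nearest in 3′ UTR length, where it was 53.8% for RICTOR (4385 bases), 56.4% for TSC1 (4887 bases) and 15.4% for TSC2 (877 bases). The 4 sites are printed 5′ to 3′ with the seed match in capitals, because they are where miR-143-3p would be sought on these mRNAs.
RICTOR 8mer: tccagttgggatgaagcattTCATCTCAct
RICTOR 7mer-A1: ttccactttcatcaactttcCATCTCAtc
TSC1 7mer-A1: gaggaactgcacctttaggcCATCTCAgc
TSC2 7mer-A1: gactcggggaaataaattagCATCTCAga

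The RICTOR 8mer lies at chr5:38940719-38940726 on the minus strand, 1578 bases into the 3′ UTR, and the 7mer-A1 of this gene at chr5:38941481-38941487, 817 bases into it. Both were in the 3′ UTR of 2 of 2 coding transcripts. An 8mer for miR-143-3p occurs in 4.59% of all longest 3′ UTRs. The TSC1 site lies at chr9:132895350-132895356 on the minus strand and was in 8 of 17 coding transcripts. The TSC2 site, at chr16:2089474-2089480 on the plus strand, was in only 1 of 17 coding transcripts, near the end of a 3′ UTR that runs into the oppositely transcribed PKD1 gene. The other arm, miR-143-5p, (8mer ACTGCACA) had 3 sites in TSC1, 1 in RICTOR and 2 in MLST8. In TSC1 one of them starts 864 bases into the 3′ UTR, next to the miR-143-3p site at 879, and in RICTOR it starts at 1604, just past the 8mer. A miR-143-5p site is found in 23.3% of longest 3′ UTRs.

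Sites of the miR-99/100 seed (8mer TACGGGTA) are rare, in 1.78% of longest 3′ UTRs, and both MTOR and RPTOR held 1. Among the 500 genes nearest in length the shares were 1.2% for MTOR and 1.8% for RPTOR. These sites are printed because they set the kinase and the mTORC1 scaffold apart from the other members, on the side of a miRNA family other than miR-143.
MTOR 7mer-m8: aagatccataactttagaaaTACGGGTtt
RPTOR 7mer-m8: gaggcaggcgctggggctccTACGGGTcc

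The MTOR site lies at chr1:11107184-11107190 (minus strand) and was in 2 of 2 coding transcripts, and the RPTOR site at chr17:80964736-80964742 (plus strand) in 2 of 4. MIR100, MIR99A and MIR99B have rows of their own in the tables and were listed at 0 in all groups, which says nothing of the mature miRNAs, since a library of long RNA fragments does not measure them. A match of these letters is a description of the sequence and no proof of a bound site.

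**Figure D1:**
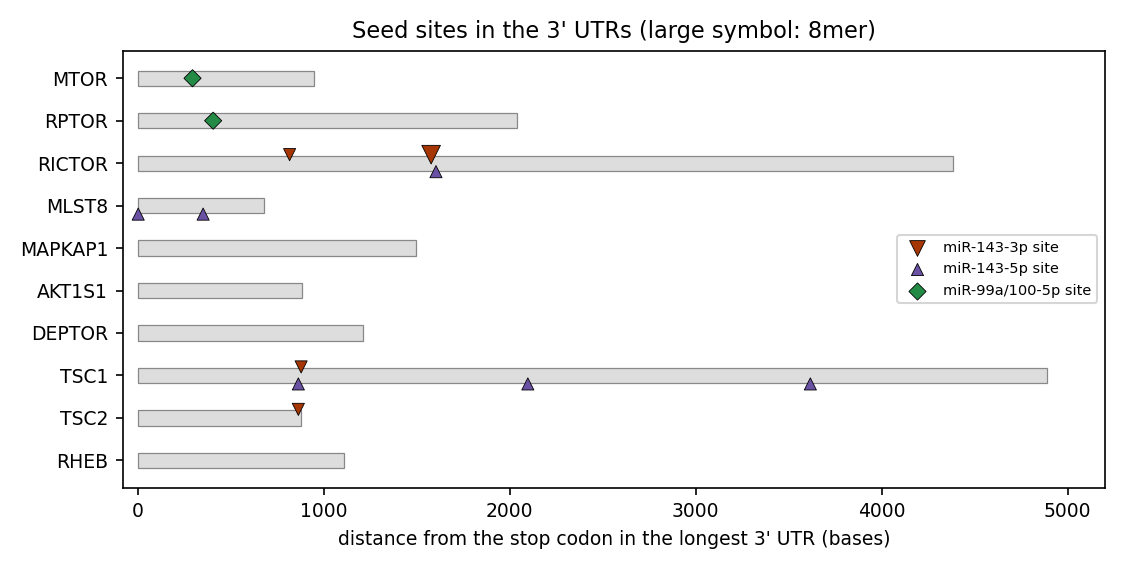
Seed sites in the longest 3′ UTRs of the 10 members; each bar is a 3′ UTR, the horizontal axis is the distance from the stop codon in bases, and symbols mark sites by miRNA, with a larger symbol for an 8mer. Sites for miR-143-3p sit in RICTOR, TSC1 and TSC2, the RICTOR 8mer is the only 8mer, and the miR-99a/100-5p sites sit in MTOR and RPTOR.

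MTOR (chr1:11106535-11262507, minus strand), the kinase itself, averaged 3.75 FPKM (IgG) and 10.1 FPKM (AGO) in control cells, and 4.22 FPKM (IgG) and 11.8 FPKM (AGO) in miR-143 cells. Both AGO averages were above both IgG averages, and within each precipitate the cell populations lay close to each other. AGO over IgG was a log2 ratio of 1.23 without and 1.29 with the miR-143 vector, where all ratios are log2 of (FPKM + 1) over (FPKM + 1), a form that understates the change of low values. The same ratio of miR-143 over control cells was 0.20 between the AGO precipitates and 0.14 between the mock precipitates. The enrichment of MTOR thus differed by 0.07 log2 units between the cell populations, against a median of 1.18 over 6610 rows of 1 coding gene.

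MLST8 (chr16:2204248-2209416, plus strand), the β-propeller partner of the kinase in both complexes, averaged 49.5 FPKM (IgG) and 73.2 FPKM (AGO) in control cells, and 22.6 FPKM (IgG) and 81.0 FPKM (AGO) in miR-143 cells. It was the highest of the members in every group except miR143_IgG, where RHEB and RPTOR were above it. Both AGO averages were again the higher ones, with log2 ratios over IgG of 0.56 (control cells) and 1.80 (miR-143 cells). Between the AGO precipitates it hardly moved (0.14), while the mock precipitate of miR-143 cells was lower than that of control cells (−1.10), so that the distance between the enrichment ratios comes mostly from the IgG values. Its 3′ end overlaps BRICD5 on the other strand, which was at most 1.08 FPKM. DEPTOR (chr8:119873717-120050913, plus strand), an inhibitor that binds both complexes, was listed at 0 in all groups and is not compared.

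RPTOR (chr17:80544819-80966371, plus strand) encodes raptor, the scaffold that brings substrates to mTORC1. Its averages were 12.2 FPKM (IgG) and 6.91 FPKM (AGO) in control cells, and 23.2 FPKM (IgG) and 12.8 FPKM (AGO) in miR-143 cells. Here the mock precipitate was the higher one within each cell population, although the 2 precipitates overlapped across populations, since miR143_AGO was above control_IgG. AGO over IgG was −0.74 without the miR-143 vector and −0.81 with it, a difference of 0.07 log2 units. RPTOR was higher in miR-143 cells than in control cells in both precipitates, by 0.81 (AGO) and 0.88 (IgG), so that the IgG-corrected ratio, the AGO over IgG ratio of miR-143 cells relative to that of control cells, was −0.07. The similar enrichment of MTOR and RPTOR in both populations was thus in opposite directions. Both hold a site of the miR-99/100 family.

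AKT1S1 (chr19:49869033-49878459, minus strand) encodes PRAS40, an inhibitor of mTORC1. Its levels and ratios are not given, because its only row is a joined one. That row was less than 2-fold apart in all 5 comparisons and enters the counts and medians below.

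RICTOR (chr5:38937919-39074408, minus strand), which encodes the defining subunit of mTORC2 and holds the 8mer shown above, was the lowest member above 0 in every group except miR143_IgG. It averaged 0.160 FPKM (IgG) and 1.21 FPKM (AGO) in control cells, and 4.67 FPKM (IgG) and 1.02 FPKM (AGO) in miR-143 cells. The AGO averages were thus close to each other and the IgG averages lay on either side of them. Between the AGO precipitates the log2 ratio of miR-143 over control cells was −0.13, with 62.3% of 7176 coding rows higher. AGO over IgG was 0.93 without the vector and −1.49 with it, and the IgG-corrected ratio was −2.41. The 0.160 FPKM of control_IgG enters the first and the last of these and rests on few fragments. With a pseudocount of 0.1 the same values were 2.33, −2.08 and −4.42. Each kept its sign.

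MAPKAP1 (chr9:125437393-125707234, minus strand) encodes SIN1, the other subunit particular to mTORC2. It averaged 22.0 FPKM (IgG) and 3.89 FPKM (AGO) in control cells, and 12.7 FPKM (IgG) and 14.0 FPKM (AGO) in miR-143 cells. The control_AGO average stood below the other 3, which lay within a factor of 1.73 of each other. The log2 ratio of miR-143 over control cells between the AGO precipitates was 1.61, the highest among the members, and above that of 96.0% of coding rows. In the mock precipitates the ratio was −0.75. AGO over IgG was −2.23 without the miR-143 vector and 0.13 with it, which made the IgG-corrected ratio 2.36. No site for either arm of miR-143 was found in its longest 3′ UTR of 1494 bases. The 5′ UTR and coding sequence of that transcript held 2 matches to the miR-143-3p seed.

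TSC1 (chr9:132891348-132946874, minus strand), encoding hamartin, the stabilizing subunit of the TSC complex, averaged 5.31 FPKM (IgG) and 18.4 FPKM (AGO) in control cells, and 1.30 FPKM (IgG) and 7.996 FPKM (AGO) in miR-143 cells. Both AGO averages were above both IgG averages, and in each precipitate miR-143 cells were lower than control cells. AGO over IgG came to 1.62 without the miR-143 vector and to 1.97 with it, and 5.51% of 6610 coding rows were as high or higher in both. The log2 ratio of miR-143 over control cells was −1.11 between the AGO precipitates, the lowest among the members, and −1.46 between the mock precipitates. Corrected for IgG the ratio came to 0.35. The start of TSC1 overlaps GFI1B, a gene for a transcription factor of the erythroid lineage on the other strand (9.64 to 23.0 FPKM), whose reads cannot be told apart from those of TSC1 in the overlap if strand was not kept.

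TSC2 (chr16:2047465-2089487, plus strand) encodes tuberin, the subunit that makes RHEB hydrolyze GTP. It averaged 6.74 FPKM (IgG) and 7.83 FPKM (AGO) in control cells, and 1.89 FPKM (IgG) and 14.4 FPKM (AGO) in miR-143 cells. The control precipitates were nearly level, while those of miR-143 cells lay below and above them. AGO over IgG was accordingly 0.19 (control cells) and 2.41 (miR-143 cells), the latter above 94.6% of coding rows. Between the AGO precipitates the log2 ratio of miR-143 over control cells was 0.80, and between the mock precipitates it was −1.42, which gave an IgG-corrected ratio of 2.22. PKD1, which overlaps the end of TSC2 on the other strand in a row joined with MIR6511B1, averaged 28.2 FPKM (IgG) and 35.9 FPKM (AGO) in control cells, and 11.5 FPKM (IgG) and 41.1 FPKM (AGO) in miR-143 cells, the same order of groups as TSC2. NTHL1, which overlaps the start of TSC2 on the other strand, ranged from 7.38 to 14.8 FPKM. The part of both in the TSC2 values was not tested.

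RHEB (chr7:151466012-151520120, minus strand), the GTPase that activates mTORC1, averaged 18.5 FPKM (IgG) and 2.46 FPKM (AGO) in control cells, and 27.7 FPKM (IgG) and 2.47 FPKM (AGO) in miR-143 cells. The AGO averages were almost identical and both far below the mock averages. By plain ratios RHEB was 7.54 times lower in AGO than in IgG in control cells and 11.3 times lower in miR-143 cells. With the pseudocount, AGO over IgG was −2.50 and −3.05, and 1.10% of 6610 coding rows were as low or lower in both cell populations. Between the AGO precipitates the ratio was 0.00 (−0.08 to 0.13 with groups scaled to each other), and between the mock precipitates 0.56. RHEB had no site for any of the 4 miRNAs. The processed copies RHEBP2 and RHEBP3 were listed at 0 in all groups.

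**Figure D2:**
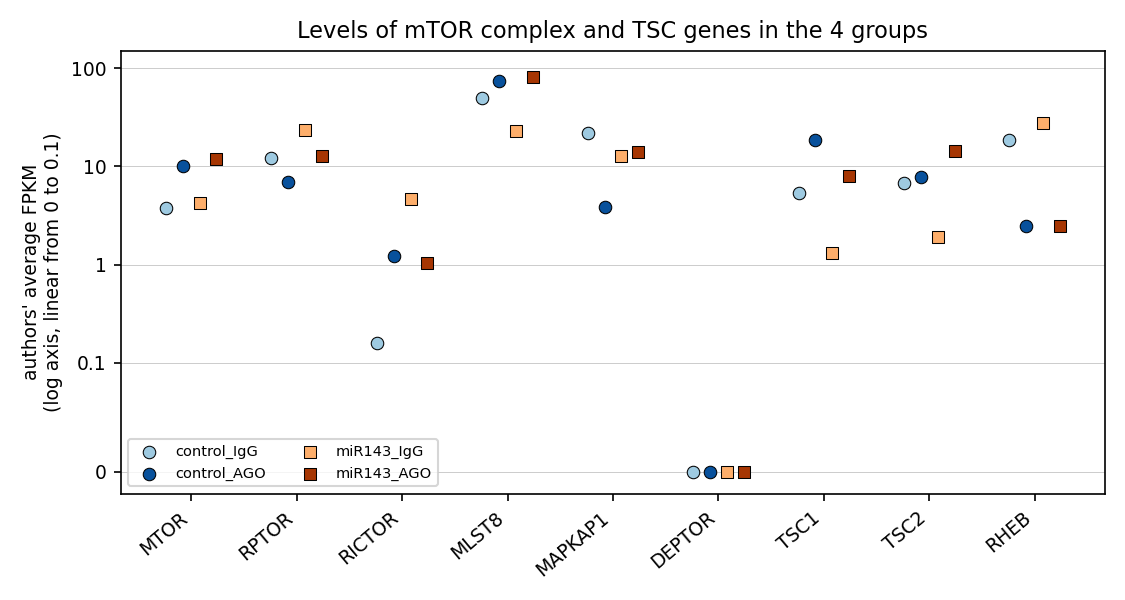
Authors' average FPKM of 9 members, without the joined row of AKT1S1 (vertical axis, logarithmic above 0.1 and linear from 0 to 0.1) in control_IgG, control_AGO, miR143_IgG and miR143_AGO; each point is 1 group average without a replicate error. RHEB is at 2.46 and 2.47 FPKM in the AGO groups against 18.5 and 27.7 FPKM in the IgG groups, MTOR shows the opposite order, and DEPTOR is at 0.

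Whether the mRNAs were more abundant with AGO2 than in the mock precipitate was asked in each cell population separately. The control and the miR-143 comparison share no sample. The precipitates also differed in composition, since rows of 1 coding gene held 7.90% (control cells) and 8.38% (miR-143 cells) of all FPKM with IgG against 42.0% and 37.2% with AGO. FPKM divides by length, so that short RNAs weigh heavily in such a share, which is not a share of fragments. The summed FPKM of the coding rows was itself higher with IgG. Factors bringing those sums to a common value were 0.824 (control cells) and 0.847 (miR-143 cells) with IgG against 1.19 and 1.20 with AGO. The part of this in the ratios was not tested beyond the scalings below. In control cells, 2 members were at least 2-fold higher in AGO (TSC1 and MTOR) and 2 were at least 2-fold lower (RHEB and MAPKAP1), against 34.5% of all 9919 rows higher and 36.2% lower. RICTOR, at 0.93, fell just short. Its ratio, which rests on few control_IgG fragments, was 1.03 to 1.14 with the 3 scalings. With pseudocounts of 0.1 and 0.01 the ratio of RICTOR was 2.33 and 2.84. In miR-143 cells 4 were higher (TSC2, TSC1, MLST8 and MTOR) and 2 lower (RHEB and RICTOR), against 26.6% and 33.5% of 10643 rows. With 9 members and no replicate values, these counts are a description and single nothing out about the members. With the pseudocount of 1 no member was 10-fold apart in either population, a rule met by 9.36% and 5.27% of rows in either direction. RHEB in miR-143 cells passed it by the plain ratio given above and with a pseudocount of 0.1 (−3.44). No share of rows was taken in either of these ways, so that RHEB has no background there. The median log2 ratio of the 9 members was 0.19 in control (−0.05 over members with a mean of at least 5 FPKM) and 0.35 in miR-143 cells, and that of all rows −0.19 and −0.22. Scaling the groups to each other moved the median of all rows up by 0.33 to 0.53 in control cells and by 0.24 to 0.41 in miR-143 cells, and brought the members' median to 0.54 to 0.75 and to 0.63 to 0.84. Under these scalings, in both populations, MTOR, MLST8, TSC1 and TSC2 stayed above 0, and RHEB and RPTOR stayed below 0. RHEB lay at −2.15 to −1.95 in control cells and −2.81 to −2.63 in miR-143 cells. RPTOR lay at −0.37 to −0.16 in control cells and −0.53 to −0.33 in miR-143 cells. TSC2 was at 0.54 to 0.75 in control cells.

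Across both populations, MTOR and TSC1 were at least 2-fold higher in AGO in each (15.1% of 6610 coding rows) and RHEB was at least 2-fold lower in each (15.1%). For MTOR, MLST8, TSC1 and TSC2 both AGO averages were above both IgG averages, an order seen in 26.9% of coding rows, and for RHEB both were below, as in 28.8%. Of the members with a row of their own, MAPKAP1 and RICTOR had opposite signs in the cell populations, as did 2315 of 6610 coding rows (35.0%). Among the members, the activator RHEB and its inhibitors TSC1 and TSC2 thus stood at opposite ends of the AGO over IgG ratio in miR-143 cells, while in control cells TSC2 was near the middle. By plain ratios TSC1 was 3.47 times higher in AGO than in IgG without the miR-143 vector and 6.17 times with it.

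**Figure D3:**
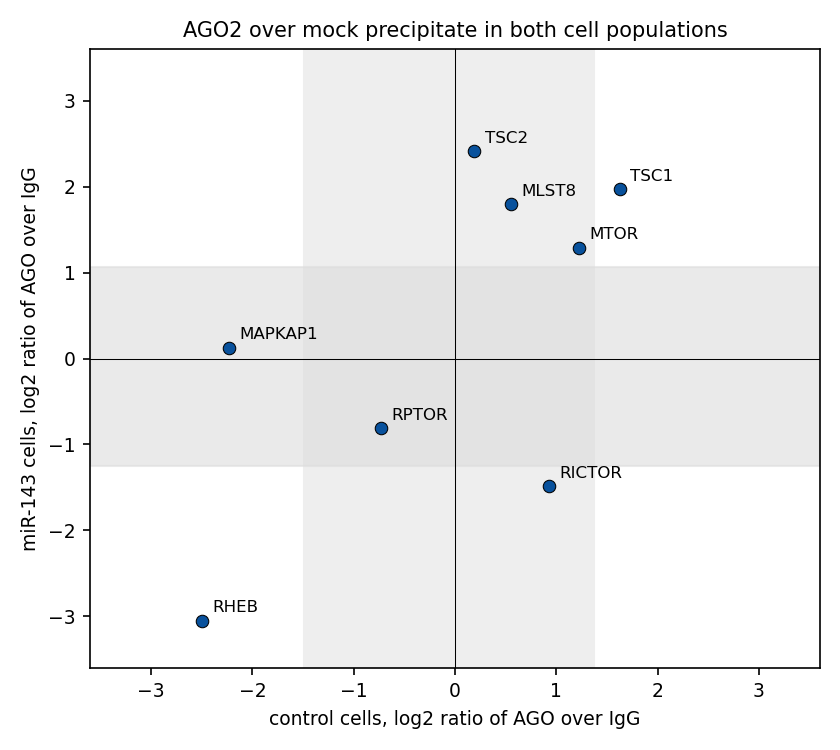
Log2 ratio of AGO over IgG with a pseudocount of 1 in control cells (horizontal) and in miR-143 cells (vertical) for the 8 members above 0 that have a row of their own; each point is 1 gene, the bands run from the lower to the upper quartile of coding rows on each axis. RHEB lies far down on both axes (−2.50 and −3.05), TSC1 and MTOR are above 1 on both, and RICTOR (0.93 and −1.49) changes sides.

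Cells with and without the miR-143 vector were then compared in their AGO precipitates, with the mock precipitates as background. Between the AGO precipitates 1 member was at least 2-fold higher in miR-143 cells (MAPKAP1, against 17.7% of 9798 rows) and 1 was at least 2-fold lower (TSC1, against 14.1%). The remaining 7 were within 2-fold. None was 10-fold apart, which 1.03% of rows were in either direction. The study's 10-fold cutoff counted increases only, and its methods describe no pseudocount, so that this rule is not the study's own. At least 10-fold higher by it were 28 rows (0.286%). The median of the members was 0.20 and that of all rows 0.17. Between the mock precipitates, made without the AGO2 antibody, 1 was at least 2-fold higher (RICTOR, against 36.2% of 10172 rows) and 3 were lower (TSC1, TSC2 and MLST8, against 26.8%), with a median of −0.14 against 0.17 for all rows. In the IgG-corrected ratio, MAPKAP1, TSC2 and MLST8 were at least 2-fold higher (29.0% of 11914 rows) and RICTOR was lower (33.5%), although MLST8 was at 0.89 with groups scaled to the same median. That ratio contains the AGO and IgG values already given and is no independent measure. With groups scaled to the same upper quartile TSC1 was no longer 2-fold lower between the AGO precipitates (−0.97), and with the other scalings it was −1.23 and −1.11.

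For the 3 members with a miR-143-3p site in the 3′ UTR, the log2 ratios between the AGO precipitates were −0.13 (RICTOR), −1.11 (TSC1) and 0.80 (TSC2). Those of the 6 compared members without a site there ranged from 0.00 (RHEB) to 1.61 (MAPKAP1). The groups overlap. With 1 average per group no member can be called bound more or less because of miR-143.

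**Figure D4:**
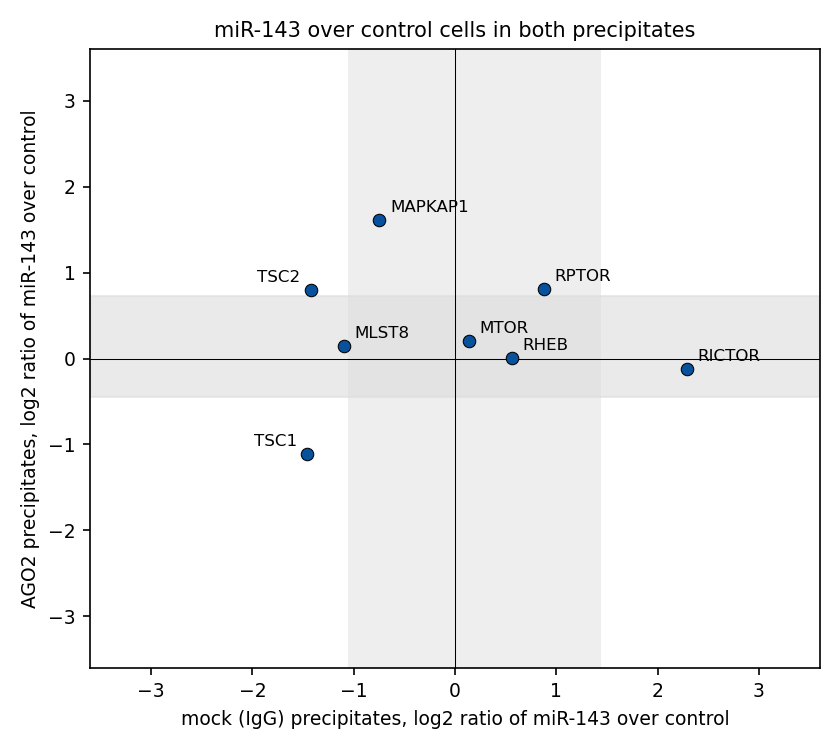
Log2 ratio of miR-143 over control cells with a pseudocount of 1 in the mock precipitates (horizontal) and in the AGO precipitates (vertical) for the 8 members above 0 that have a row of their own; each point is 1 gene, the bands run from the lower to the upper quartile of coding rows on each axis. The points run from −1.11 (TSC1) to 1.61 (MAPKAP1) vertically and from −1.46 (TSC1) to 2.29 (RICTOR) horizontally, where the value of RICTOR rests on few control_IgG fragments and the next is 0.88 (RPTOR).

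Ratios of 2 genes inside a group cannot be changed by any scaling between groups, and they were taken for partners of the same complex or switch after the levels had been seen. RPTOR was above RICTOR everywhere, 76.2 times (IgG) and 5.71 times (AGO) in control cells and 4.97 times (IgG) and 12.5 times (AGO) in miR-143 cells, the first resting on the few fragments of RICTOR. MLST8 exceeded MTOR 13.2, 7.24, 5.36 and 6.87 times in the same order of groups. TSC1 over TSC2 was 0.788 (IgG) and 2.35 (AGO) in control cells and 0.688 (IgG) and 0.556 (AGO) in miR-143 cells, so that the control AGO precipitate was the only group with more TSC1 than TSC2. RHEB over TSC2 separated the precipitates, at 2.75 and 14.7 with IgG (control, then miR-143 cells) against 0.314 and 0.172 with AGO, and RHEB over TSC1 did so too (3.49 and 21.4 against 0.133 and 0.308). In both mock precipitates RHEB mRNA was thus above the mRNAs of its inhibitors, and in both AGO precipitates it was below them.

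**Figure D5:**
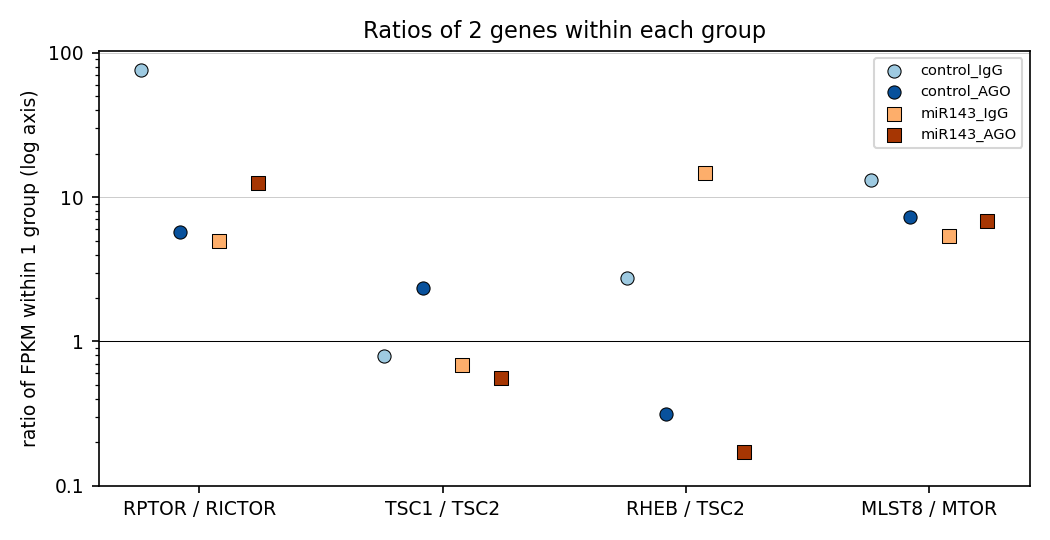
Ratio of FPKM of 2 members within each group (vertical axis, logarithmic; the line marks 1) for RPTOR over RICTOR, TSC1 over TSC2, RHEB over TSC2 and MLST8 over MTOR; each point is 1 group. RHEB over TSC2 is above 1 in both IgG groups (2.75 and 14.7) and below 1 in both AGO groups (0.314 and 0.172).

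Among themselves, the members followed no common profile. With log2(FPKM + 1) centered on the mean of the 4 groups, the most alike were MLST8 and TSC2, with a root mean square difference of 0.27, followed by MTOR and MLST8 with 0.44. The least alike were TSC1 and RHEB with 2.43. TSC1 and TSC2, whose products work as 1 complex, differed by 0.72. Over 3842 other coding rows of at least 1 FPKM in all groups, the profiles nearest to RHEB were those of C1orf122 (0.09) and LSM10 (0.12), nearest to TSC1 those of EXOSC10 (0.06) and CDCA3 (0.16), and nearest to TSC2 those of TMEM120A (0.06) and TMED1 (0.06). For MTOR they were DHX34 (0.06) and KLF11 (0.08), for RPTOR ZMYND19 (0.05) and MAN2A1 (0.05), for MLST8 TACO1 (0.05) and UBE3C (0.06), and for MAPKAP1 MTHFD1 (0.09) and COA1 (0.10). These likenesses rest on 4 values each.

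The wider pathway was described with 5 lists of 66 genes: accessory subunits, amino acid sensing at the lysosome, PI3K-AKT input, energy and stress input, and targets of mTOR. Of 56 genes compared between the AGO precipitates, 4 were at least 2-fold higher in miR-143 cells (7.14%) and 5 lower (8.93%), both below the shares of all rows given above. With the pseudocount of 1, 0 of the 56 were 10-fold apart. Their median log2 ratio was 0.20, against 0.17 for all rows. By plain values some low genes were more than 10-fold apart. From control to miR-143 cells, LAMTOR3 rose from a listed 0 to 1.04 FPKM. SLC38A9 fell from 2.72 FPKM to a listed 0, and NDRG1 from 3.77 to 0.0553 FPKM. They were named after their values were seen, and no share of all rows was taken by plain values. The 4 higher genes were among the 23 compared amino acid sensing genes (17.4% of them, against 17.7% of all rows), and 3 of the 4, RRAGA, LAMTOR3 and NPRL2, named after their values were seen, were at or below 2.89 FPKM in both AGO groups. The median log2 ratio was 0.28 for amino acid sensing, 0.38 for 4 accessory subunits, −0.05 for 10 genes of PI3K-AKT input, 0.13 for 6 of energy and stress input and −0.21 for 13 targets. At least 2-fold lower were 1 amino acid sensing gene, 1 of PI3K-AKT input and 3 targets (23.1% of the targets, against 14.1% of all rows), and no difference between the lists was tested. Among the 48 genes of at least 1 FPKM in both AGO groups, the highest were LAMTOR4, a subunit of the Ragulator that anchors the Rag GTPases (1.24, from 15.2 to 37.1 FPKM), DEPDC5 of the GATOR1 inhibitor (0.94, from 1.21 to 3.24 FPKM) and TTI1, which helps to assemble mTOR complexes (0.94, from 5.26 to 11.0 FPKM). The lowest were LPIN1, a phosphatidate phosphatase phosphorylated by mTORC1 (−2.30, from 61.1 to 11.6 FPKM), the row joining the cap-binding protein gene EIF4E with TBCAP3 (−1.50, from 10.8 to 3.19 FPKM) and PDPK1, the kinase that activates AKT (−0.95, from 4.88 to 2.04 FPKM). LPIN1 was lower with miR-143 among the mock precipitates too, at 27.5 FPKM in control_IgG and 2.32 FPKM in miR143_IgG, and so was the EIF4E row, at 8.70 and 3.48 FPKM. PDPK1 was at 1.99 and 1.23 FPKM there. In the same order, LAMTOR4 was at 64.2 and 46.0 FPKM, so that both its AGO averages lay below both mock averages. DEPDC5 stood at 1.43 and 0.146 FPKM in these mock precipitates, and TTI1 at 3.64 and 2.99 FPKM.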

How the data were processed

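RNA bound to AGO2 or to unspecific IgG was sequenced from K562 cells, grouped as the titles of the samples state. The labels name ribosomal RNA removal and paired-end sequencing and the study's methods a TruSeq RNA kit; whether strand was kept is not given in the sources used here. The authors aligned reads with TopHat and made FPKM values with Cufflinks on hg38, per the labels (the submitters' processing notes), and deposited 4 tables, each with 1 average FPKM per gene row and group. Versions and the gene annotation are not given in the sources used here. Library sizes are unknown, so that no interval could be given.

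Members and lists were chosen with earlier results of these data known. Rows were matched by symbol, joined rows included, and the values of the 1 joined member row are not reported here. The log2 ratio used a pseudocount of 1 and rows in which some compared group reached 1 FPKM, and 2-fold or more was counted. The low edge is the 10th lowest product above 0 of FPKM and length over genes with 1 transcript in GENCODE 29. Named beside the members are pathway genes 10-fold apart between AGO groups, the 3 highest and 3 lowest of them, and the 2 coding rows nearest to each member; exceptions are stated. Sites were searched in GENCODE 29 transcripts on the transcribed strand, and coordinates are of that release. Ratios and site searches were tested on simulated data. Python 3.11.15, numpy 2.4.6, pandas 2.3.3 and matplotlib 3.10.9 were used. Alternatives were pseudocounts of 0.1 and 0.01, other filters, 3 scalings, leaving out joined rows and a 1.5-fold threshold. Ratios within a group and rules over both cell populations were added after the values had been seen.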

Additional observations from a re-analysis of the deposited data

How the results depend on the processing

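No paired analysis was possible because each group is represented by a single averaged column without replicate numbers, and for the same reason no replicate could be left out. The number of members at least 2-fold apart between the AGO precipitates (2) was 1 with the same upper quartile and 4 at 1.5-fold, and between the mock precipitates (4) it was 1 with a mean of at least 5 FPKM, where only 5 members were compared. Scaling moved the split of higher and lower members in control cells from 2 and 2 to 4 and 2 (same median, same coding sum) or 3 and 2 (upper quartile), and in the mock pair from 1 and 3 to 2 and 2 (same median) or 1 and 2 (upper quartile). Both smaller pseudocounts also gave 3 and 2 in control cells, through RICTOR. The members' medians moved by less than 1.5-fold under every alternative run, but 2 small ones changed sign, control cells to −0.05 when members averaging under 5 FPKM were left out and the mock pair (−0.14) to 0.08 when scaled to the same median. Of 225 values of single members under another pseudocount or scaling, 214 moved by less than 1.5-fold and 11 by more, 8 of these for RICTOR with smaller pseudocounts, and 0 values of 2-fold or more changed sign. Smaller values changed sign for 4 ratios, all under scaling: 2 of the joined row, RHEB between the AGO precipitates, and MTOR in the IgG-corrected ratio (0.07, or −0.21 with the same median).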

Other observations

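Some genes of the wider pathway also stood far apart between the AGO and the mock precipitate. They were picked after their values had been seen, and no replicate values bear on them. ULK1, the kinase that starts autophagy and is held back by mTORC1, was at 27.0 FPKM (control cells) and 27.6 FPKM (miR-143 cells) in the AGO precipitates, while the mock precipitates held 0.519 FPKM and a listed 0. ATG13, its partner, averaged 3.06 FPKM (IgG) and 52.2 FPKM (AGO) in control cells, and 74.1 FPKM (IgG) and 26.8 FPKM (AGO) in miR-143 cells, so that AGO was the higher precipitate only in control cells. RPS6, the ribosomal protein whose phosphorylation is the usual readout of mTORC1, reached 544 and 493 FPKM in the mock precipitates of control and miR-143 cells but 63.8 and 54.9 FPKM in the AGO precipitates, so that, like RHEB, both AGO averages were below both mock averages. PRKAA1, a catalytic subunit of the energy sensor AMPK, also had both AGO averages below both mock averages, at 21.8 and 71.3 FPKM in the mock precipitates and 2.24 and 3.01 FPKM in the AGO precipitates of control and miR-143 cells. EIF4EBP1, the translation repressor that mTORC1 inactivates, had both AGO averages on top, with 91.3 and 93.9 FPKM in the mock precipitates and 248 and 220.2 FPKM in the AGO precipitates. Over all 57 genes of the 5 lists compared in control cells, 20 were at least 2-fold higher in AGO and 20 lower (35.1% each, against 34.5% and 36.2% of all rows), and of the 57 compared in miR-143 cells 15 were higher and 13 lower (26.3% and 22.8%, against 26.6% and 33.5%).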
